A study of Mus musculus with 2 samples.

Results

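The 7 genes that encode subunits of the NMDA receptor were described, picked out by gene symbol from the 55536 genes of the deposited tables. They are Grin1 (the GluN1 subunit), Grin2a, Grin2b, Grin2c and Grin2d (the GluN2 subunits) and Grin3a and Grin3b (the GluN3 subunits), and all 7 were found in both libraries. Total RNA came from the hippocampus, which the labels call a layer of hippocampus, of male B6CASTF1/J mice aged 14 days, a hybrid of the strains C57BL/6J and CAST/EiJ. The 2 libraries are labelled as biological replicates 1 and 2 of 1 group, each with 3 males and 300 ng of RNA to start from. The labels name no treatment and do not say whether the RNA of the males was mixed. There was no second condition, so the data give levels within the tissue, ratios between subunits and the spread between these 2 samples.

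NMDA receptors are glutamate-gated cation channels of excitatory synapses that open when glutamate and a co-agonist, glycine or D-serine, are bound and depolarisation has relieved a magnesium block. Each channel needs GluN1, which binds the co-agonist, together with GluN2 subunits, which bind glutamate and set channel kinetics, or GluN3 subunits, which bind glycine and lower calcium permeability. In rodent forebrain GluN2B predominates early in life and GluN2A increases after birth, and in the hippocampus receptors of both kinds take part in long-term synaptic plasticity.

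The gene tables held 29144892 expected counts on genes in replicate 1 and 31755578 in replicate 2; an expected count is an estimated number of reads. Levels are given in TPM, a deposited unit scaled to a fixed total per library, which divides by transcript length and so allows genes to be compared. Values with ± are means and SDs over n = 2 libraries, and log2 ratios between libraries are replicate 1 over replicate 2. Markers of excitatory neurons were abundant, with Camk2a at 1259.7 and 1306.7 TPM, Nrgn at 674.6 and 808 TPM and Slc17a7 at 663 and 686.9 TPM in replicates 1 and 2. The 4 cerebellar granule neuron markers summed to 0.47 and 0.69 TPM and the 5 cholinergic and motor neuron markers to 0.73 and 0.46 TPM. Markers of other cells differed between the libraries. The 8 genes of myelinating oligodendrocytes were all higher in replicate 1 and summed to 1771.4 TPM there and 942.9 TPM in replicate 2, and the 4 testable thalamic markers of 5 were higher too (49.18 and 27.74 TPM summed). Of the choroid plexus markers 3 of 4 tested were higher (90.23 and 48.19 TPM summed over 5), as were the 3 red blood cell markers (312.1 and 229.5 TPM). The 5 neocortical markers had 2 higher and 3 lower, with sums of 54.82 and 60.41 TPM. In bulk tissue, fewer cells of a type and less RNA per cell cannot be told apart.

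The subunit genes fell into a high class, a middle class and 1 gene under 1 TPM. Grin1, Grin2b and Grin2a lay between 127.5 and 189.7 TPM on average, Grin3a, Grin2c and Grin2d between 9.28 and 24.1 TPM, and Grin3b at 0.08 TPM. Together the 7 genes took 0.318% of the gene counts in replicate 1 (Clopper-Pearson 95% interval 0.316 to 0.320) and 0.330% in replicate 2 (0.328 to 0.332), intervals that cover counting error only. Against the 12924 protein-coding genes with at least 1 TPM in both libraries, Grin1, Grin2b and Grin2a stood at percentiles 97.3, 96.5 and 95.0, while Grin3a stood at 64.7, Grin2c at 60.4 and Grin2d at 34.6.

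**Figure D1:**
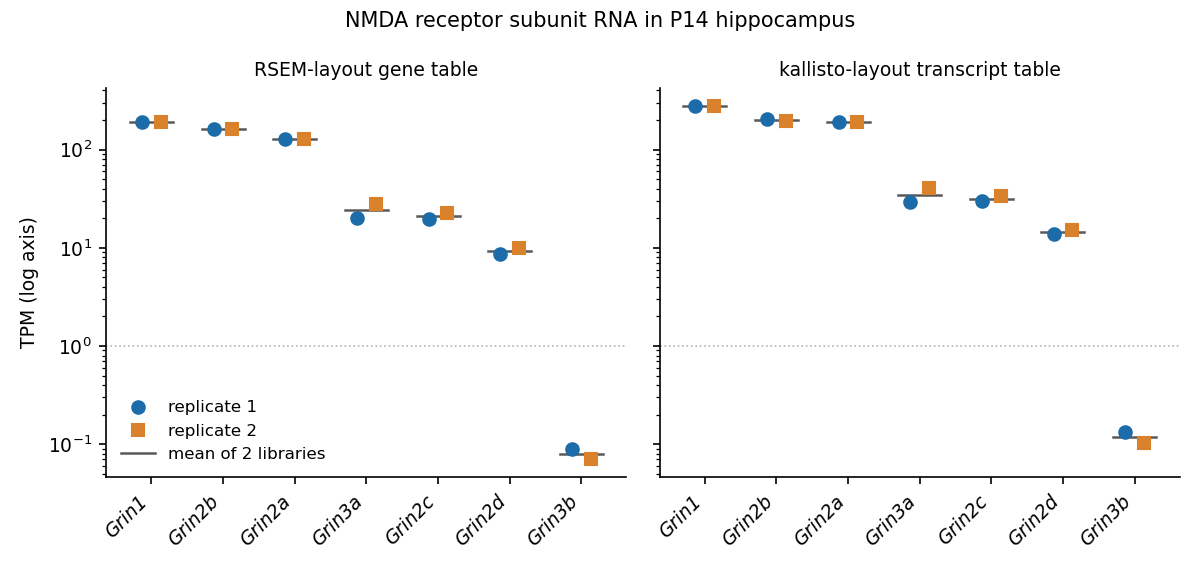
TPM of each subunit gene (log axis) in replicate 1 (circles) and replicate 2 (squares) with the mean of both libraries (line), from the RSEM-layout gene table (left) and the kallisto-layout transcript table summed per gene (right). The dotted line marks 1 TPM. Grin1, Grin2b and Grin2a sit together at the top in both tables and only Grin3b lies under 1 TPM.

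Grin1 (ENSMUSG00000026959.13, chr2:25291181-25319187, minus strand, mm10), the obligatory subunit, had 189.2 TPM in replicate 1 and 190.3 TPM in replicate 2, from 14422 and 15577 expected counts. The libraries were close to each other, and no other subunit gene was as high on the TPM scale. Among the 18 genes of the ionotropic glutamate receptor family Grin1 ranked 3, behind Gria1 (251.3 and 266.9 TPM) and Gria2 (253.3 and 242 TPM), which encode the main AMPA receptor subunits. The RNA of all GluN2 and GluN3 genes together exceeded that of Grin1, with a ratio of Grin1 to their sum of 0.560 and 0.544 on the TPM scale (0.552 ± 0.011).

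Grin1 is also where the annotation resolves protein-coding splice forms. Its 8 coding transcripts are the 8 combinations of 3 choices, all read from the minus strand of chromosome 2 in mm10. The N1 cassette, an in-frame exon of 63 bases in the extracellular domain (chr2:25311343-25311405), is known to weaken inhibition of the receptor by protons. The C1 cassette, an in-frame exon of 111 bases in the intracellular tail (chr2:25294438-25294548), carries phosphorylation sites and an endoplasmic reticulum retention signal. The last exon either begins at the C2 acceptor or at a second acceptor 356 bases further on, which removes the C2 ending and its stop codon and gives the C2′ ending, known for binding proteins with PDZ domains. The sequences below are those of the GENCODE M21 transcripts, which follow the C57BL/6J reference. They are shown because they are the segments by which the transcripts are told apart. Capitals mark the cassette between 20 bases of each neighbouring exon in the N1 and C1 lines, and the stop codon in the C2 and C2′ endings.

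Grin1 N1 cassette: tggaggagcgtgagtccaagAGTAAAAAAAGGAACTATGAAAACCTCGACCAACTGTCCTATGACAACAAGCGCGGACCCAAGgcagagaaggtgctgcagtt
Grin1 C1 cassette: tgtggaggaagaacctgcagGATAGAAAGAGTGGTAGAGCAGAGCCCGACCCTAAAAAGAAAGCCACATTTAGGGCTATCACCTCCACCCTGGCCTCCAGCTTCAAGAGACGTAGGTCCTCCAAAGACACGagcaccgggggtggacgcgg
Grin1 C2 ending: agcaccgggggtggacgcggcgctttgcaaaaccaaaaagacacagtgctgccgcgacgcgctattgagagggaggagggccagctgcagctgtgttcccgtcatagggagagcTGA
Grin1 C2′ ending: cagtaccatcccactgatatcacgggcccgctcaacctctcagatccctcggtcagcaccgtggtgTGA

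The C2 ending runs over chr2:25292368-25292484 (117 bases with the stop) and the C2′ ending over chr2:25292060-25292128 (69 bases with the stop).

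Most Grin1 coding RNA lacked the N1 cassette. In the RSEM-layout transcript table, N1-containing transcripts made up 12.6% of the coding TPM in replicate 1 and 8.61% in replicate 2 (10.6 ± 2.8). The kallisto-layout table gave 14.8% and 9.97% (12.4 ± 3.4), so replicate 1 was the higher library in both tables and the share was a minority in all 4 values. The C1 cassette was near parity. It was in 54.2% of coding RNA in replicate 1 and 56.4% in replicate 2 (55.3 ± 1.6), and in 49% and 51.8% (50.4 ± 2.0) by the kallisto-layout table. The C2′ ending held 37.0% and 38.5% (37.8 ± 1.1), and 40.9% and 43.1% (42.0 ± 1.6) by the kallisto-layout table, so the C2 ending was the more frequent one in each library.

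The most abundant combination was Grin1-201, without N1, with C1 and with C2. It held 44.4% of the coding TPM in replicate 1 and 41.4% in replicate 2. Grin1-205, without N1 and C1 and with C2′, held 27.8% and 25.9%. In the kallisto-layout table these transcripts were level, at 32.5% and 35.4% for Grin1-201 and 34.1% and 33.2% for Grin1-205. Grin1-202, without either cassette and with C2, came next with 11.6% and 17.3%, against 13.2% and 12.8% by the kallisto-layout table. Among the transcripts without N1 the lowest was the one that joins C1 to the C2′ ending, Grin1-206, which held 3.67% and 6.73%, and 5.43% and 8.64% in the kallisto-layout table.

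The N1-containing combinations were not resolved. The RSEM-layout table put 6.48% in replicate 1 and 0.4% in replicate 2 on Grin1-203 (N1, no C1, C2), and 5.49% and 5.88% on Grin1-208 (N1, C1, C2′). The kallisto-layout table put 3.75% and 2.20% on Grin1-203, 1.40% and 1.30% on Grin1-208, and 9.68% and 6.48% on Grin1-204 (N1, C1, C2), to which the RSEM-layout table gave 0.647% and 2.33%. Both tables listed Grin1-207 (N1, no C1, C2′) at 0 in both libraries. The 95% interval deposited with the posterior mean of Grin1-203 ran from 0.0188 to 9.38 TPM in replicate 1 and from 1.14e-05 to 9.89 TPM in replicate 2. The N1 exon and the last exons lie far apart in the RNA, so how N1 is joined to a tail rests on the quantifier's estimate, and the shares of single cassettes are the firmer values.

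**Figure D2:**
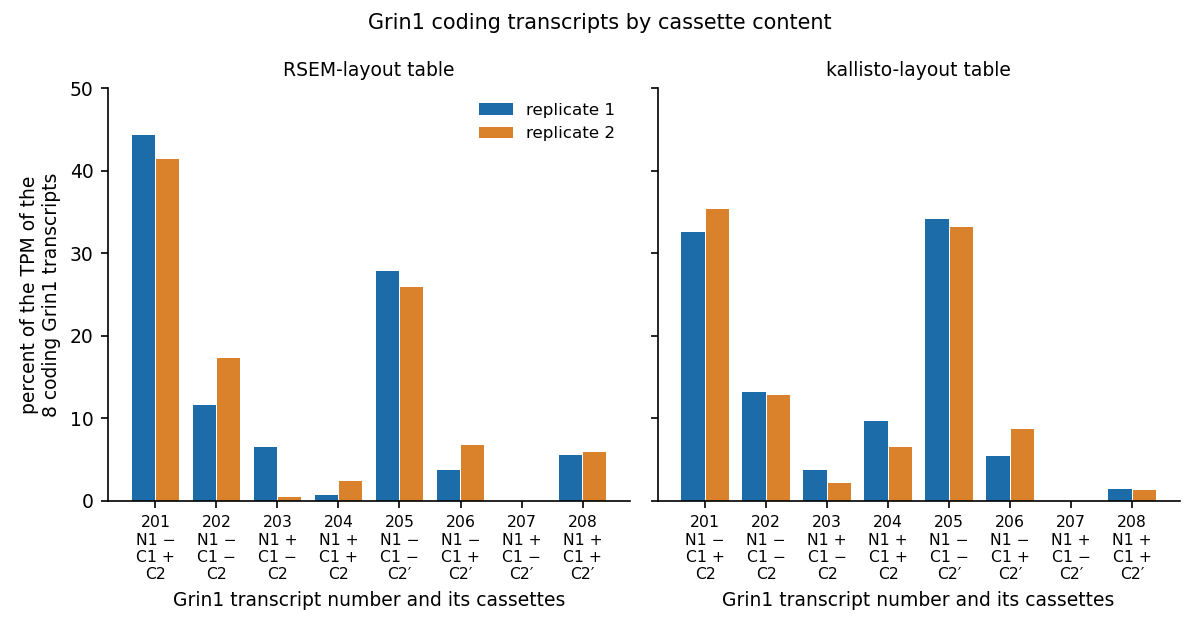
Percent of the TPM of the 8 coding Grin1 transcripts (bars, from 0) in replicate 1 (left bar) and replicate 2 (right bar), with the cassettes each carries (+) or lacks (−) and its ending, in the RSEM-layout table (left) and the kallisto-layout table (right). Grin1-201 and Grin1-205, both without N1, lead in both tables, while those with N1 are low and change places between the tables.

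Noncoding transcripts of the Grin1 locus, 6 of its 14, held 11.7% of its TPM in replicate 1 and 9.24% in replicate 2. The antisense gene Grin1os, which overlaps the last exons, had 2 and 1 counts.

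Of the GluN2 genes, Grin2b and Grin2a carried most of the RNA. Grin2b (ENSMUSG00000030209.14, chr6:135713233-136173511, minus strand) had 161.2 TPM in replicate 1 and 161.5 TPM in replicate 2. It was the member with the most reads, 48320 and 55802 expected counts. Its subunit prevails in young forebrain, and receptors that hold it are the target of the blocker ifenprodil. Grin2a (ENSMUSG00000059003.12, chr16:9567898-9995560, minus strand), whose subunit gives faster channel closing, had 128.1 and 126.9 TPM, from 24549 and 25892 expected counts. Both genes differed by under 2 TPM between libraries.

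Grin2b thus held 50.8% of the GluN2 TPM in replicate 1 and 50.3% in replicate 2 (50.5 ± 0.34), and Grin2a 40.3% and 39.5% (39.9 ± 0.59). The log2 ratio of Grin2b to Grin2a was 0.33 in replicate 1 and 0.35 in replicate 2 (0.34 ± 0.012), or 1.27-fold. Genes were called different in level when the log2 ratio of TPM had 1 sign in the 2 libraries and its mean was over 0.5 and over 2 SD, and this pair did not pass. The kallisto-layout table narrowed the gap to 0.12 in replicate 1 and 0.03 in replicate 2 (0.08 ± 0.062), with Grin2b at 207.2 and 196.9 TPM and Grin2a at 190.7 and 192.7 TPM. The sign was the same in both tables and libraries, and the size was not.

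Read counts alone would have ranked the subunits otherwise. Grin2b had 3.35 times as many expected counts as Grin1 in replicate 1 and 3.58 times in replicate 2, but 0.852 and 0.849 times its TPM. Its effective length, the length the tables divide by, was 14857.6 bases in replicate 1 and 16075 bases in replicate 2, against 3777.8 and 3809.7 bases for Grin1. By counts Grin2b made up 64.0% and 65.7% of the GluN2 reads, against 50.8% and 50.3% of the GluN2 TPM.

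**Figure D3:**
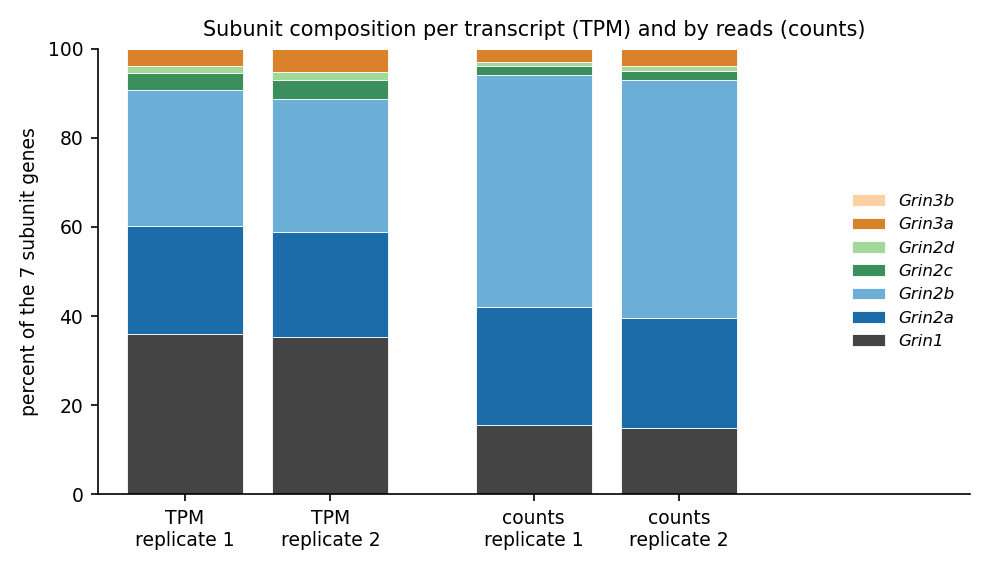
Percent of the 7 subunit genes held by each gene (stacked from 0 to 100), by TPM in replicates 1 and 2 (left pair) and by expected counts in replicates 1 and 2 (right pair). Grin2b fills 30.6% and 29.9% of the TPM bars and 52.1% and 53.3% of the count bars, while Grin1 fills 35.9% and 35.3% of the TPM bars and 15.6% and 14.9% of the count bars.

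The forms with a long 3′ UTR were the leading transcripts of both genes. Grin2b-201, of 24060 bases with a 3′ UTR of 18865 bases, held 56.3% of the Grin2b TPM in replicate 1 and 60.9% in replicate 2, and Grin2b-202, with the same coding sequence of 4449 bases and a 3′ UTR of 2272 bases, held 15.5% and 17.3%. Between these 2 forms the long one took 78.4% and 77.8%, and 84.0% and 82.5% by the kallisto-layout table. A fragment model of 601 bases with an incomplete coding sequence, Grin2b-206, was given 18.3% and 11.7%, and 6.95% and 6.08% by the kallisto-layout table. Grin2a-206, of 14634 bases with a 3′ UTR of 9929 bases, held 54.3% in both libraries, and 51.2% and 49.4% by the kallisto-layout table. The share of Grin2a-202, with a 3′ UTR of 86 bases, was 13.8% in replicate 1 and 21.9% in replicate 2. The kallisto-layout table gave it 25.1% and 25.8%, so the libraries differed in the RSEM-layout table alone, where Grin2a-201, with the same coding sequence, took 8.98% in replicate 1 and 0% in replicate 2. Grin2a-204, an unspliced model annotated as a retained intron, took 11.7% and 11.5%.

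When only transcripts with a complete coding sequence were counted, a choice made after the data were seen, Grin2b had 122.8 and 134.9 TPM and Grin2a 98.7 and 96.6 TPM, and their log2 ratio was 0.40 ± 0.12. The Grin2b values include Grin2b-205, at 7.07 and 8.63 TPM. Its annotated coding sequence has 1014 bases, against 4449 bases in Grin2b-201 and Grin2b-202.

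Grin2c and Grin2d were far lower. Grin2c (ENSMUSG00000020734.13, chr11:115249169-115267243, minus strand), best known from the cerebellum and from astrocytes, had 19.7 TPM in replicate 1 and 22.8 TPM in replicate 2, from 1759 and 2202 expected counts. Grin2d (ENSMUSG00000002771.12, chr7:45831883-45878378, minus strand), known from interneurons and the developing brainstem, had 8.57 and 9.98 TPM, from 890 and 1083 expected counts. Replicate 2 was the higher library for both. Grin2c held 6.21% and 7.11% of the GluN2 TPM and Grin2d 2.70% and 3.11%, and Grin2c exceeded Grin2d by a log2 ratio of 1.198 ± 0.006, which passed the rule.

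The complete coding transcripts of each of these genes share 1 coding sequence and differ in their UTRs. Grin2c-201 held 60.9% of the Grin2c TPM in replicate 1 and 50.1% in replicate 2, and Grin2c-202, which has a 5′ UTR of 773 bases in place of 157, held 39.1% and 49.9%. By the kallisto-layout table Grin2c-202 held 41.6% and 45.4%, so the libraries lay closer together in that table. Grin2d-201 held 62.3% and 64.4% and Grin2d-203 held 35.0% and 30.5%. Grin2d shares ground with Kdelr1 (1011 and 1160 expected counts) and Gm45441 (159 and 203) on the opposite strand. The deposited posterior SD of the Grin2d count, which measures how uncertainly reads were assigned, was 0 in both libraries.

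Grin3a (ENSMUSG00000039579.15, chr4:49661611-49845744, minus strand), whose subunit is known for restraining synapse maturation in young brain, was the member that differed most between the libraries. It had 20.03 TPM in replicate 1 and 28.2 TPM in replicate 2, from 2753 and 4079 expected counts. The kallisto-layout table gave 29.1 and 40.5 TPM. Its mean of 24.1 ± 5.8 TPM put it beside Grin2c, and the pair did not pass the rule (log2 ratio 0.16 ± 0.20). Grin2a exceeded Grin3a by 2.42 ± 0.36 on the log2 scale and did pass.

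Grin3a has 2 coding transcripts that differ by an in-frame insert of 60 bases at chr4:49665566-49665625 in the intracellular tail. In rat a longer GluN3A form with an insert in this tail is known. The insert is shown in capitals between 20 bases of flank on each side, from the GENCODE M21 transcript Grin3a-202 on the minus strand, because it is the segment that tells the 2 forms apart.

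Grin3a insert: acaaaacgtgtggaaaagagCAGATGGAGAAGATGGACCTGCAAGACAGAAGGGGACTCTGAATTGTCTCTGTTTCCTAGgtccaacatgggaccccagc

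Grin3a-202, with the insert, held 23.5% of the TPM of the 2 coding forms in replicate 1 and 23.9% in replicate 2 (23.7 ± 0.30). The kallisto-layout table gave 28.7% and 23.9% (26.3 ± 3.4). The form without the insert, Grin3a-201, led in each. While the Grin3a level differed between libraries, the share of the insert by the RSEM-layout table was within 1 percentage point.

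Grin3b (ENSMUSG00000035745.9, chr10:79970715-79977190, plus strand), which is known from motor neurons, had 6 counts in replicate 1 and 4 counts in replicate 2, with exact Poisson 95% intervals of 2.20 to 13.1 and 1.09 to 10.2 counts. Its TPM of 0.09 and 0.07 was under 1 in both libraries and it ranked last of the 18 ionotropic receptor genes. Tmem259 (2398 and 2691 expected counts) overlaps it on the opposite strand, and the posterior SD of the Grin3b count was 0 in both libraries.

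In all, 18 of the 21 pairs of subunit genes passed the rule for a difference in level, and 3 of the 6 pairs of neighbours in the order Grin1, Grin2b, Grin2a, Grin3a, Grin2c, Grin2d, Grin3b did so. The neighbours that passed were Grin2a over Grin3a, Grin2c over Grin2d and Grin2d over Grin3b (6.86 ± 0.41, at counts where Grin3b is not resolved). Grin1 over Grin2b (0.23 ± 0.003), Grin2b over Grin2a and Grin3a over Grin2c did not pass, so the order within those pairs is not separated by this rule. No p was computed for these pairs, because the smallest that sign flips of 2 values allow is 0.5 (two-sided).

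The replicates were compared gene by gene by a binomial test, exact and two-sided, of the counts, with library sizes from edgeR's TMM method and with Benjamini-Hochberg adjustment over 18332 genes with a mean count of at least 10 and a threshold of 0.05. It asks whether these 2 libraries differ beyond counting noise. It called 22.5% of all genes tested (10.6% higher and 11.9% lower in replicate 1), and 34.9% of the 7968 genes with a mean count of at least 500 (13.3% higher and 21.6% lower). Of the 7 members 6 had the counts to be tested and 4 were called, 1 higher and 3 lower in replicate 1. With libraries scaled to the spike-ins, 6516 of the 18332 genes tested were called in place of 4128. Of all calls 15.3% were higher in replicate 1 in place of 47.3%. Under that scaling the median log2 ratio of all genes tested was −0.11, and 6 members were called, 0 higher and 6 lower. With TMM sizes the median log2 ratio of the 6 was −0.10, against 0.003 over all genes tested and −0.027 over those of at least 500 counts. The members are few, and at their counts small differences pass.

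Grin3a was lower in replicate 1 by a log2 ratio of −0.42 (counting interval −0.49 to −0.35, exact binomial test, adjusted p = 5.7e-31), or 1.34-fold. This was a larger difference than 97.8% of genes with a mean count of at least 500 had. Grin2c was lower at −0.18 (−0.27 to −0.09, exact binomial test, adjusted p = 0.00094). Grin2b and Grin2a passed at sizes of 1.05-fold, Grin2b lower at −0.06 (adjusted p = 4.2e-11, exact binomial test) and Grin2a higher at 0.07 (adjusted p = 3.2e-06, exact binomial test), a direction that turned to −0.05 for Grin2a when libraries were scaled to the spike-ins. The RSEM-layout TPM values of both were level, while the kallisto-layout TPM of Grin2b was the higher in replicate 1, as given above. For Grin2b the level TPM combined complete coding transcripts at 122.8 and 134.9 TPM with incomplete ones at 37.25 and 26.6 TPM. The effective length of Grin2b was 14857.6 bases in replicate 1 and 16075 bases in replicate 2. Grin1 (0.03, adjusted p = 0.15, exact binomial test) and Grin2d (−0.14, adjusted p = 0.12, exact binomial test) did not pass, and Grin1 stood at −0.08 with spike-in scaling.

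The binomial test allows for counting noise and for no variation between animals. With edgeR's exact test and a preset biological coefficient of variation of 0.1, 174 of the 18332 genes tested were called. Few genes of any kind passed, and 0 of the 6 members were called. In that edgeR exact test 1 member, Grin3a, had an unadjusted p under 0.05 (adjusted p = 0.71).

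**Figure D4:**
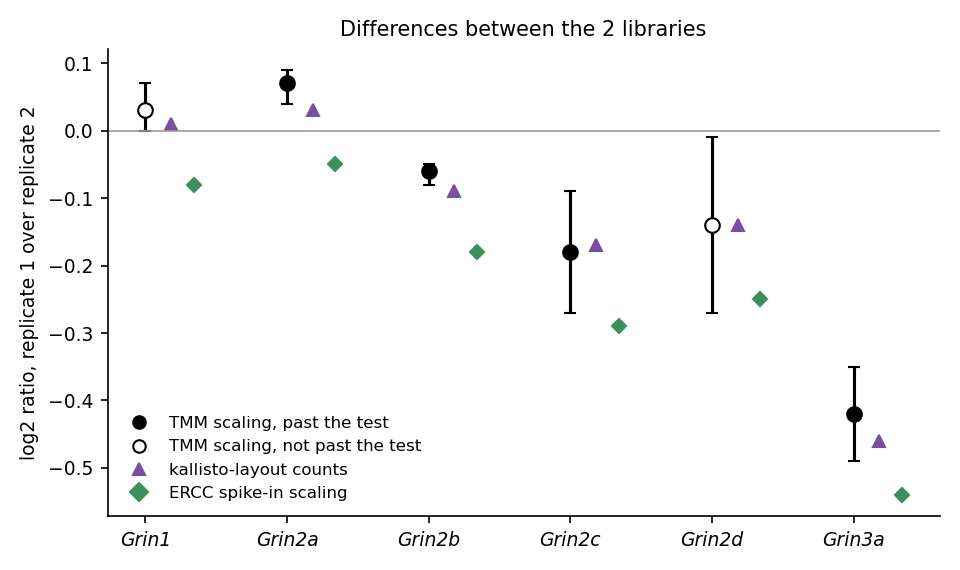
Log2 ratio of replicate 1 over replicate 2 for the 6 tested subunit genes, with TMM scaling (circles, filled where the adjusted p is under 0.05, bars are 95% counting intervals), with kallisto-layout counts (triangles) and with spike-in scaling (diamonds). Grin3a lies lowest under each, at −0.42, −0.46 and −0.54, and Grin1 and Grin2a change sign with spike-in scaling.

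Markers of other cells that differed between the libraries stand beside the Grin3a result. The 4 immature neuron markers were all lower in replicate 1 and summed to 78.14 TPM there and 113.5 TPM in replicate 2, with Dcx, a microtubule-associated protein of migrating neurons, at −0.40 (27.6 and 38.5 TPM). Of 7 interneuron markers 3 were lower and 1 higher, with a sum of 334.8 and 423.8 TPM. Among them Sst, the somatostatin gene, was lower at −0.50 (138.4 and 203.6 TPM) and Gad1 at −0.08 (104.2 and 124.1 TPM). Gad2 stood at −0.05 without passing. Lhx6 and Pvalb, the parvalbumin gene, were named after their values were seen. Lhx6 was lower at −0.39 (7.32 and 10.01 TPM) and Pvalb higher at 0.46 (14.62 and 11.02 TPM). In TPM the gap was largest for Sst, followed by Gad1. The 6 astrocyte markers had 2 higher and 2 lower, with sums of 1770.8 and 1793.2 TPM. The part of these cell types in the Grin3a and Grin2c values was not tested.

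On the TPM scale, NMDA receptor genes made up 39.0% of the ionotropic glutamate receptor RNA in replicate 1 and 39.4% in replicate 2 (39.2 ± 0.25), second to the 4 AMPA receptor genes with 43.6% and 43.0%. The 5 kainate receptor genes held 15.0% and 15.1%, and the 2 delta receptor genes 2.33% and 2.51%. In summed TPM the NMDA receptor genes had 526.8 and 539.8 and the AMPA receptor genes 588.4 and 589. Grik5 (113.1 and 117.4 TPM), the highest kainate receptor gene, was next below Grin2a in level.

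The 10 lists of receptor-related genes held 51 genes, with the AMPA, kainate and delta receptor subunits, Grina, Nsmf and Rest among them. Of these 51 genes 50 were tested and 26 called between the libraries, 8 higher and 18 lower in replicate 1 (2 higher and 35 lower with spike-in scaling). Their median was −0.05 on the log2 scale. With TMM sizes the share called over all genes was 22.5%, and 34.9% at a mean count of at least 500. With spike-in scaling 6516 of the 18332 genes tested were called, 15.3% of them higher in replicate 1. The 4 scaffolds of the PSD-95 family, which bind GluN2 tails, had 0 higher and 2 lower. Dlg4, which encodes PSD-95, was at 377.2 and 409.1 TPM (−0.09), Dlg2 at 133.4 and 134.1 TPM (not called) and Dlg3 at 58.0 and 64.2 TPM (−0.09). Dlg4 stood above every subunit gene.

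The 11 kinases and phosphatases acting on the receptor had 2 higher and 4 lower. Camk2a and Camk2b (425.7 and 464 TPM), which encode CaMKII subunits, and Ppp3ca (418.1 and 466.6 TPM), a calcineurin catalytic subunit, were each above every receptor gene and lower in replicate 1 by −0.04, −0.08 and −0.10. The 6 surface and signalling partners had 1 higher and 3 lower, and among them Rasgrf2, a calcium-responsive Ras exchange factor, had 31.9 and 33.9 TPM and was not called. The 7 genes for transport of receptor cargo had 0 higher and 3 lower, with Apba1 at 67.1 and 78.6 TPM (−0.17).

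Genes of the co-agonists were present at moderate levels with 1 exception. Of 9 genes, 8 were tested, 1 was higher and 3 were lower in replicate 1. Srr, the enzyme that makes D-serine, had 41.1 and 45.4 TPM and was not called, and Phgdh, which starts the serine pathway, had 26.3 and 35.5 TPM (−0.41, adjusted p = 7.3e-10, exact binomial test). Slc7a10, a transporter of small neutral amino acids, had 22.8 and 26.1 TPM and was not called. Dao, which degrades D-serine, had 2 counts in replicate 1 and 0 in replicate 2.

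A pair of genes with NMDA receptor in their names that encode no subunit were both above every subunit gene in TPM. Grina had 219.1 and 233.4 TPM and Nsmf, which encodes the synapse-to-nucleus messenger Jacob, had 411.8 and 449.7 TPM. Rest, the repressor of neuronal genes, had 2.18 and 2.47 TPM.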

How the data were processed

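The authors deposited, per library, a gene table and a transcript table in the layout of RSEM, and a transcript table in the layout of kallisto. Expected counts are deposited as estimated reads per gene or transcript, without normalisation. TPM and FPKM were scaled by the authors per library, per the file headers, over all entries with spike-ins included. Each transcript's percent of its gene's TPM is the authors' deposited value. Build mm10 and GENCODE M21 were used, according to the labels and the deposited notes. These notes derive the RSEM-layout tables from transcriptome alignments and the kallisto-layout tables from the reads. The aligner, all versions and all settings were not given in the sources used here. Alleles of the CAST/EiJ parent were not analysed here. The deposited TPM intervals belong to the posterior mean TPM and not to the TPM beside them.

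Each gene table held 81881 entries, of which 97 were spike-ins and 26248 bore only a number. The numbered entries, with 2.67e-05% of the counts in replicate 1 and 9.40e-06% in replicate 2, stayed out of gene totals and tests. The deposited posterior SD of the count was 0 for 6 members and 17.7 and 17.4 counts for Grin2a, so reads shared with other genes played little part.

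Expected counts were rounded for the test, log2 ratios had a prior count of 0.5, and intervals are 95% and cover counting error only. The test, run in Python 3.11.15 with scipy 1.17.1, numpy 2.4.6 and pandas 2.3.3, was tested on simulated data. The simulated counts held counting noise and no variation between animals, so they cannot show how the test behaves with such variation. TMM sizes came from edgeR 4.0.16 and alternative size factors from DESeq2 1.42.0 in R 4.3.3, and figures from matplotlib 3.10.9. Cassette shares are sums of transcript TPM over the coding transcripts of the gene. The labels call the samples biological replicates. Binomial p-values set the difference between these 2 libraries against counting noise only, and edgeR p-values set it against a preset variation. Neither estimates the variation between animals. The members and the other list genes, 126 in all, were chosen with earlier results of these data known. The text names all members, of each other list up to 3 genes with the highest mean TPM and any under a mean of 1 TPM, and transcripts by their share (for Grin1 every one with at least 5% in either table). Not every gene the rule allows is printed. With 2 libraries of 1 group no likeness between genes was computed. Alternatives were other scalings, count filters, count columns and tests, other TPM columns, a pseudocount of 1 TPM, a log2 threshold of 1 and leaving out each replicate.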

Additional observations from a re-analysis of the deposited data

How the results depend on the processing

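Counts of 4 called members held under 6 of 8 alternative settings of the replicate test, with 1 higher and 3 lower in replicate 1. Scaling to the spike-ins moved the median of all genes by −0.11 and called 6516 genes in place of 4128, 15.3% of them higher in replicate 1 in place of 47.3%; it called 6 members, all lower, and turned Grin1 to −0.08 and Grin2a to −0.05. The edgeR test with a coefficient of variation of 0.1 called 174 genes, 0 members and 0 of the receptor-related list genes (1 of each had an unadjusted p under 0.05), where the binomial test called 4 and 26. The log2 ratio of Grin2b to Grin2a was 0.08 by the kallisto-layout table. Over complete coding transcripts, with the shorter Grin2b-205 among them, it was 0.40 and 0.29 in the RSEM-layout and kallisto-layout tables. Grin2b held 45.9%, 50.2% and 48.4% of the GluN2 TPM under these settings, in that order. The cause was not tested. Leaving out 1 replicate gave log2 ratios of 0.33 to 0.35 and shares of 50.3% to 50.8%. The 3 differing neighbours held under every setting run. So did the leading transcript of all 7 members, taken from means over both libraries or from 1 library of the RSEM-layout table. By the kallisto-layout table in replicate 1 alone, Grin1-205 (34.1%) stood above Grin1-201 (32.5%) among the coding transcripts. By posterior mean in replicate 2 alone, Grin3b-202 (37.41%) stood above Grin3b-201 (32.65%), at 4 counts. Kallisto-layout TPM was 1.25 times the RSEM-layout TPM for Grin2b and 1.44 to 1.55 times for the other members, so absolute TPM depends on the table. Protein-coding genes held 46.26% of the TPM in replicate 1 and 48.55% in replicate 2. With TPM taken over these genes alone, Grin1 stood at 400.4 TPM and Grin2b at 340.5 TPM. No paired analysis was possible because there is 1 group. Depth limits Grin3b, at 6 and 4 counts.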
